A study of Mus musculus with 12 samples.

Results

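The genes described here are 10 marker genes of fibroadipogenic progenitors (Pdgfra, Dcn, Lum, Ly6a, Cd34, Gsn, Fbn1, Mfap5, Dpt and Pi16), each matched by its exact gene symbol to 1 of the 55335 genes that were counted. They were chosen by the cell type they mark and by their read counts in these same 12 libraries, which were already known, so their levels are given as a description without a test. The libraries were made from muscle stem cells (MuSCs) of the hindlimb of adult Pax7-ZsGreen mice, which carry a green reporter that marks cells expressing Pax7, the transcription factor of MuSCs. Cells were sorted on ZsGreen against autofluorescence, and a gate that removes cells by surface proteins is not described in the sources used here. The paper reports that freshly isolated cells stained after the sort were all positive for Pax7, and its reporting summary says almost all. Each of 4 groups has 3 libraries. F cells were lysed when freshly isolated (replicates 1, 4 and 5). 2d-U cells were cultured for 2 days uncompressed (replicates 1, 2 and 3) and 5d-U cells for 5 days uncompressed (replicates 1, 2 and 6). 2+3d-C cells were cultured for 2 days and then for 3 days under a PDMS device that presses on them from above (replicates 4, 5 and 10). All cultured cells grew on plastic coated with Matrigel and fibronectin in medium with serum and FGF. Nothing in the labels says that the libraries of a group came from separate animals, so every p-value measures only the spread between these libraries, which may be technical.

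Fibroadipogenic progenitors (FAPs) are the resident mesenchymal cells of the spaces between myofibers. They deposit extracellular matrix, send signals to MuSCs after injury, and can become fibroblasts or adipocytes when repair fails. They are usually recognised by the surface proteins PDGFRα and Sca-1 (the product of Ly6a), which MuSCs do not carry, and by high expression of small leucine-rich proteoglycans and microfibril proteins. CD34 is different, because quiescent MuSCs carry it on their surface as well. Gelsolin, the product of Gsn, is made by many cell types.

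Reads counted on genes numbered between 12540745 and 62424851 per library. A gene was taken as detected above 3 reads. In CPM, the reads scaled to the library total after TMM adjustment (a scaling factor per library that evens out differences in composition), 3 reads correspond to 0.0563 to 0.362 in single libraries. This floor covers counting error alone, since amplified reads were counted with no molecular identifier. Levels are given below as RPKM, CPM divided by the exon length in kilobases, which allows genes of different length to be compared. Replicates 4 and 5 of F and replicates 1 and 6 of 5d-U held more reads per kb of exon than the others on 2106 autosomal genes of families that are silent in muscle, such as olfactory receptors (5.03, 7.13, 3.81 and 0.634 against 0.00936 to 0.22). Because these are bulk libraries, fewer cells of a type and less RNA per cell cannot be told apart.

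Of the 10 genes, 9 had their highest mean level in F, and Dpt had its highest in 2+3d-C. All 10 were detected above 3 reads in each F library. In 2d-U, 5 of them (Pdgfra, Lum, Mfap5, Dpt and Pi16) had 0 reads in all 3 libraries, while Cd34 and Gsn stayed well above detection. In 2+3d-C, 8 of 10 were above 3 reads in each library, and the other two, Pdgfra and Pi16, passed this limit in replicate 4 alone. In 5d-U, 9, 8 and 9 of 10 were above 3 reads in replicates 1, 2 and 6. All 10 genes were thus detected together in the F libraries and in replicate 4 of 2+3d-C. Detection does not check the label of FAP markers. In replicates 4 and 5 of F the density on silent families alone would place 6.06 to 86.5 reads on each member. In replicates 5 and 10 of 2+3d-C the defining receptor gene Pdgfra was within the limit of detection.

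**Figure D1:**
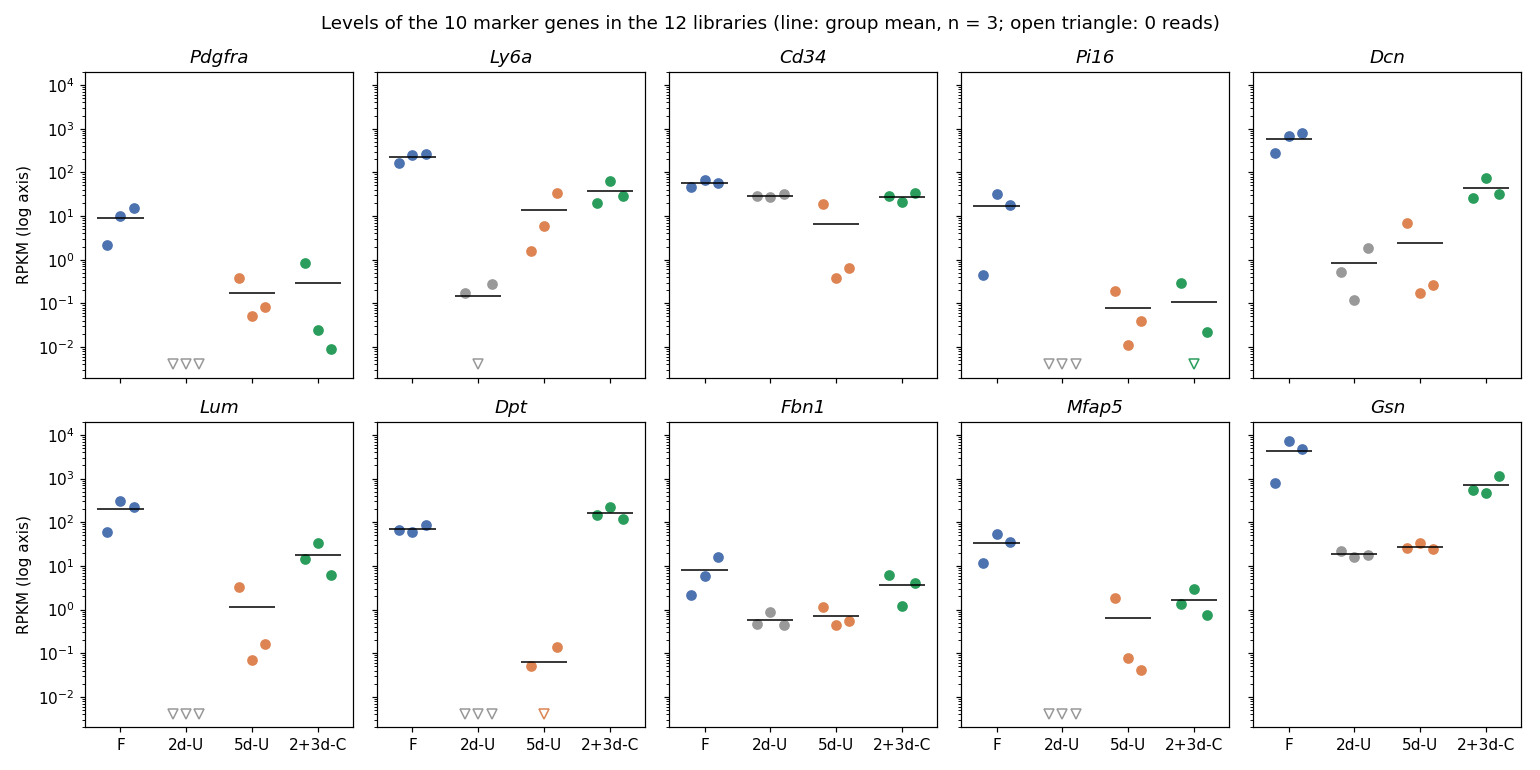
RPKM (log axis) of each of the 10 genes in the 12 libraries, with 1 point per library in replicate order, a line at the mean of each group (n = 3) and an open triangle for a library with 0 reads. Dpt is the gene whose 2+3d-C libraries (120 to 218 RPKM) all sit above its F libraries (58.6 to 88.2 RPKM), and Cd34 is the gene whose 2d-U libraries (27.6 to 31.7 RPKM) stay near the level of 2+3d-C.

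The surface receptors and antigens parted from one another in culture. Pdgfra, the receptor tyrosine kinase for PDGF ligands that defines FAPs, had an RPKM of 2.13, 9.85 and 15.6 in replicates 1, 4 and 5 of F. It had 0 reads in all 3 libraries of 2d-U, which allows up to 0.0567, 0.118 and 0.0665 CPM in replicates 1, 2 and 3. In 5d-U its level was 0.382, 0.0522 and 0.083 RPKM in replicates 1, 2 and 6, from 88, 15 and 17 reads. In 2+3d-C it was 0.849 RPKM in replicate 4, from 454 reads, and replicates 5 and 10 had 2 reads each. The F libraries did not overlap with those of any other group, and the 2+3d-C libraries lay on both sides of the 5d-U libraries. The mean over 2+3d-C (0.294 ± 0.481 RPKM, SD, n = 3) thus rests on 1 library.

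Pi16, a peptidase inhibitor gene that marks fibroblasts of the outer layers of vessels and of muscle sheaths, had the widest spread within F. Its level was 0.451 RPKM in replicate 1 of F against 32.7 and 17.8 in replicates 4 and 5, from 69, 6482 and 4489 reads. No read was counted in 2d-U, and 28, 2 and 5 reads were counted in replicates 1, 2 and 6 of 5d-U. In 2+3d-C it had 100 reads in replicate 4, 0 in replicate 5 and 3 in replicate 10. Pi16 and Pdgfra therefore shared the same libraries, being highest in replicates 4 and 5 of F and, among the cultured libraries, in replicate 4 of 2+3d-C.

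Ly6a, which encodes the surface protein Sca-1 used to sort FAPs, had 162, 251 and 268 RPKM in replicates 1, 4 and 5 of F. In 2d-U it had 11, 0 and 15 reads (0.173, 0 and 0.276 RPKM in replicates 1, 2 and 3). In 5d-U it was 1.55, 5.76 and 33.5 RPKM in replicates 1, 2 and 6, and in 2+3d-C 19.7, 64 and 29.2 RPKM in replicates 4, 5 and 10. The groups were ordered F, 2+3d-C, 5d-U and 2d-U by mean, but replicate 6 of 5d-U lay within the range of 2+3d-C. That library held more Ly6a (33.5 RPKM) than any other of the 10 genes, while its Dcn was at 0.26 RPKM and its Pdgfra at 0.083 RPKM. Ly6a was thus high there while Dcn lay within the range of 2d-U.

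Cd34, the gene of a sialomucin found on FAPs, endothelial cells and quiescent MuSCs, was the member least like the others. It had 47.3, 66 and 57.5 RPKM in F and 28.9, 27.6 and 31.7 RPKM in 2d-U, with replicates in the order given above. In 5d-U it was 18.7 RPKM in replicate 1 against 0.383 and 0.651 in replicates 2 and 6. In 2+3d-C it was 28.9, 21 and 32.9 RPKM in replicates 4, 5 and 10. The F libraries were above all others, 2d-U and 2+3d-C overlapped (29.4 ± 2.09 and 27.6 ± 6.06 RPKM, SD, n = 3 each), and all 5d-U libraries lay below both. In 2d-U, where Lum, Mfap5 and Dpt had 0 reads, Cd34 was the member with the highest level in each library.

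The proteoglycans and their partner dermatopontin were abundant in F and detected in each 2+3d-C library. Dcn encodes decorin, a small leucine-rich proteoglycan that binds collagen fibrils and is one of the most abundant transcripts of FAPs. It had 276, 690 and 780 RPKM in F and 0.518, 0.121 and 1.89 RPKM in 2d-U. In 5d-U it had 6.91 RPKM in replicate 1 against 0.173 and 0.26 in replicates 2 and 6, and in 2+3d-C it had 26.4, 75.2 and 31.9 RPKM in replicates 4, 5 and 10. F was above 2+3d-C, and 2+3d-C above both uncompressed groups, with no overlap of libraries, whereas 2d-U and 5d-U overlapped.

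Lum, which encodes lumican, a keratan sulfate proteoglycan of the same family, had 60.4, 313 and 217 RPKM in F. It had 0 reads in all 2d-U libraries, 184, 5 and 8 reads in replicates 1, 2 and 6 of 5d-U (3.27, 0.0713 and 0.16 RPKM), and 14.2, 32.6 and 6.05 RPKM in replicates 4, 5 and 10 of 2+3d-C. Dcn was at 1.62 to 5.27 times the RPKM of Lum in the 9 libraries that had reads of both. In 2d-U, Lum had 0 reads beside 160, 18 and 499 reads of Dcn in replicates 1, 2 and 3. A similar proportion was therefore not kept in all libraries. In both genes replicate 5 was the highest of 2+3d-C and replicate 1 the highest of 5d-U.

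Dpt encodes dermatopontin, a small matrix protein that binds decorin and helps collagen fibrils assemble. It had 66.5, 58.6 and 88.2 RPKM in replicates 1, 4 and 5 of F, and it was the only member for which replicate 1 of F was not the lowest of its group. It had 0 reads in 2d-U and 2, 0 and 5 reads in 5d-U. In 2+3d-C it had 144, 218 and 120 RPKM in replicates 4, 5 and 10, from 13253, 3113 and 4515 reads. All 2+3d-C libraries were above all F libraries, with means of 161 ± 51.2 and 71.1 ± 15.3 RPKM (SD, n = 3 each), and Dpt was next to Gsn the member with the highest level in each 2+3d-C library. Against the uncompressed cultures it was nearly an on or off difference, with at least 3452-fold more CPM in 2+3d-C than the 3 reads per library (a mean of 0.0802 CPM) that 0 reads in 2d-U allow.

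The microfibril genes had lower levels. Fbn1 encodes fibrillin-1, the core protein of extracellular microfibrils, and had 2.2, 5.79 and 15.7 RPKM in F and 0.458, 0.872 and 0.444 RPKM in 2d-U. In 5d-U it had 1.17, 0.434 and 0.561 RPKM in replicates 1, 2 and 6, and in 2+3d-C 6.03, 1.19 and 3.99 RPKM in replicates 4, 5 and 10. The 2+3d-C libraries were above those of both uncompressed groups, by a narrow margin in replicate 5 against replicate 1 of 5d-U, and they overlapped with F. Of the Fbn1 exon length, 20.1% is shared with the overlapping gene Gm9913, and reads were counted without strand, so the share of reads that belongs to Gm9913 is unknown.

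Mfap5 encodes a glycoprotein that associates with fibrillin microfibrils and marks fibroblasts of connective tissue sheaths. It had 11.8, 55 and 35.6 RPKM in F, 0 reads in 2d-U, and 149, 8 and 3 reads in 5d-U. In 2+3d-C it had 1.33, 2.89 and 0.738 RPKM in replicates 4, 5 and 10, from 255, 86 and 58 reads. F was above all other libraries, and replicate 1 of 5d-U (1.81 RPKM) lay within the range of 2+3d-C. Within 2+3d-C, replicate 5 was the highest for Mfap5 and the lowest for Fbn1.

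Gsn encodes gelsolin, which severs and caps actin filaments and also has a secreted form in plasma. It was the most abundant member, with 780 RPKM in replicate 1 of F against 7404 and 4727 in replicates 4 and 5. In 2d-U it had 21.8, 16.1 and 18.1 RPKM, which compares with 5d-U at 25.5, 32.7 and 24.9 RPKM, so that its libraries of 5d-U were closer to one another, as a ratio, than those of any other member. In 2+3d-C it had 551, 455 and 1116 RPKM in replicates 4, 5 and 10. The 2+3d-C libraries were above all uncompressed ones and overlapped with F, since replicate 10 was above replicate 1 of F. Gsn made up 52.3% to 83.3% of the summed RPKM of the 10 genes in the F and 2+3d-C libraries and 34.6% to 82.5% in the others.

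The 10 genes did not keep fixed proportions. Within F, all 10 were higher in replicate 5 than in replicate 1, but the ratio of CPM ran from 1.21 for Cd34 and 1.33 for Dpt to 39.6 for Pi16, with a median of 3.31. For replicate 4 over replicate 1 the ratio was 0.881 for Dpt and 72.6 for Pi16, with a median of 3.63, and 9 of 10 were higher. Within 2+3d-C, no library was highest throughout. Replicate 5 was the highest for 5 of 10 members (Dcn, Lum, Ly6a, Mfap5 and Dpt), replicate 4 for 3 (Pdgfra, Fbn1 and Pi16) and replicate 10 for 2 (Cd34 and Gsn).

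Set against Dcn in the same library, Dpt was at 0.241, 0.0849 and 0.113 times its RPKM in replicates 1, 4 and 5 of F and at 5.46, 2.9 and 3.75 times in replicates 4, 5 and 10 of 2+3d-C. Cd34 was at 0.0737 to 0.171 times Dcn in F and at 0.279 to 1.09 times in 2+3d-C, also without overlap. Pdgfra was at 0.00771, 0.0143 and 0.02 times Dcn in F and at 0.0322 times in replicate 4 of 2+3d-C, while in replicates 5 and 10 of 2+3d-C its 2 reads stood against 3633 and 4073 of Dcn. Among the matrix genes of the 10 members, Dpt led in 2+3d-C and Dcn led in F.

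**Figure D2:**
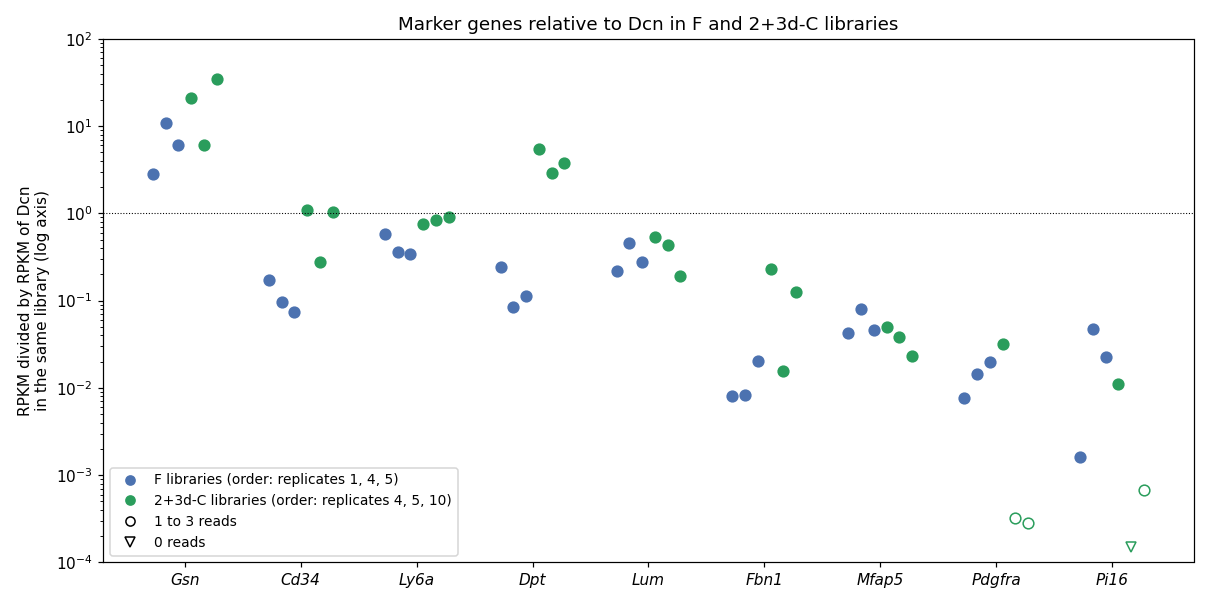
RPKM of each member divided by that of Dcn in the same library (log axis), with 1 point per F or 2+3d-C library in replicate order, open circles for 1 to 3 reads and an open triangle for 0 reads. Dpt lies at 0.0849 to 0.241 in F and at 2.9 to 5.46 in 2+3d-C, while Pdgfra and Pi16 in replicates 5 and 10 of 2+3d-C are at 3 reads or fewer.

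Over the 12 libraries, the level of Lum followed the mean profile of the other members most closely (Pearson's r of log2 CPM 0.97), with Dcn (0.956), Mfap5 (0.955) and Gsn (0.949) next. Cd34 had the lowest r (0.459), and Ly6a the next lowest (0.802). Of the 45 pairs of members, the closest were Lum with Mfap5 (0.985) and Pdgfra with Pi16 (0.952), and the most distant was Ly6a with Cd34 (0.0735). The median was 0.807 over all pairs and 0.835 over the 36 pairs without Cd34. Pairwise r among other genes was not computed, so these medians have no background beside them. A different measure, the r of 10756 other genes with the mean profile of the members, had a median of -0.115, and 397 of those genes reached 0.9. These values describe 12 libraries that fall into groups and share depth and group, and they were not tested.

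The 250 bases before the RefSeq start of 4 members are printed because these genes parted from one another in culture, Dpt and Gsn being high in 2+3d-C, Pdgfra being near detection there and Cd34 being kept in 2d-U. They were read on the strand of the gene (plus for all 4) from RefSeq promoters of GRCm38.p6, the assembly called mm10 by the submitters, in which 6 of the 10 members have an entry. The regions are chr1:164796413-164796662 (Dpt), chr2:35256109-35256358 (Gsn, the first of 3 starts), chr5:75152001-75152250 (Pdgfra) and chr1:194938571-194938820 (Cd34). By the gene models of the files they lie upstream of the gene, except for the last 19 bases of the Dpt region and the last 2 of the Cd34 region, which fall in the gene. Capitals mark CAGCTG, an E-box bound by myogenic factors. It was the only one of 4 motifs searched on both strands with a match in any of the 8 member promoters (3 of 8, against 13% of 32851 promoters), the others being TATAAA (12.4% of all promoters), TGACTCA (4.46%) and GGAATG (12.6%). These 8 promoters belong to 6 members, and the matches lie in Dpt and at 2 of the 3 starts of Gsn.
Dpt: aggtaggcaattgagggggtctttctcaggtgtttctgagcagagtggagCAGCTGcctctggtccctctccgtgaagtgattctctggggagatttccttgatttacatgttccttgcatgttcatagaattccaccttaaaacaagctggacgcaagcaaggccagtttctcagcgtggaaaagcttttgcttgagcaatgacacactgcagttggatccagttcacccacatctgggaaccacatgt
Gsn: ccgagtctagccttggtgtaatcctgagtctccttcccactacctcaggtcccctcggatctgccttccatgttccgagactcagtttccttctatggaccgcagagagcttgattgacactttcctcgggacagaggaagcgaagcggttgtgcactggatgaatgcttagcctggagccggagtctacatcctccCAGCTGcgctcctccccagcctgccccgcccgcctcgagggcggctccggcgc
Pdgfra: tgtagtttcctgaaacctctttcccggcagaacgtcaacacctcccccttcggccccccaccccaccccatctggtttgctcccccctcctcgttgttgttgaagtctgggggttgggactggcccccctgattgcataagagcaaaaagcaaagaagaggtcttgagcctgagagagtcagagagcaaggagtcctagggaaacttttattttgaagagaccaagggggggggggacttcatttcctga
Cd34: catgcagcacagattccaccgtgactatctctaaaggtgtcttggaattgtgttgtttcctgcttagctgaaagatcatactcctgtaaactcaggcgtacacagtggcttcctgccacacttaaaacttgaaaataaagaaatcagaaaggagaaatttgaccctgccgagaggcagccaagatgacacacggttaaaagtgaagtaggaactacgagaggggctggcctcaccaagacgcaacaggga

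In Dpt the E-box stands 200 to 195 bases before the start, and in Gsn 53 to 48 bases before it. The printed regions of Pdgfra and Cd34 hold none of the 4 motifs. A match describes these letters only. The G and C content was 48.8% for Dpt, 60.8% for Gsn, 54.4% for Pdgfra and 46.4% for Cd34, against a median of 52.4% over all promoters.

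The comparison of 2+3d-C with 5d-U addresses what compression changed at the same day of culture. By edgeR's quasi-likelihood test over 22635 genes, 5 of 10 members were called higher in 2+3d-C (Dcn, Lum, Gsn, Fbn1 and Dpt) at an adjusted p-value under 0.05, against 9.14% of all tested genes, and 0 were called lower, against 13.4%. As these libraries were known when the members were chosen, nothing is read from this count or from those that follow. By edgeR or DESeq2, 0 members were lower here at an unadjusted p under 0.05, and the same holds for the other counts of 0 below, except that 1 member was lower in 5d-U against 2d-U by each tool. The fitted log2 fold was 11.35 ± 0.89 (SE) for Dpt, whose 5d-U libraries held 7 reads in all, 4.67 ± 0.69 for Gsn, 4.18 ± 1.25 for Dcn, 3.91 ± 1.19 for Lum and 2.37 ± 0.74 for Fbn1. It was 2.07 ± 0.98 for Cd34, 1.47 ± 0.89 for Ly6a, 1.35 ± 1.09 for Mfap5, 0.82 ± 1.26 for Pdgfra and 0.58 ± 1.38 for Pi16, and the median over all tested genes was -1.05. Cd34 was not called although its libraries did not overlap, and for Pdgfra and Pi16 the SE exceeded the log2 fold. The number called higher was 2 without TMM scaling, 7 without replicate 1 of 5d-U, 3 without replicate 6 of 5d-U or replicate 5 of 2+3d-C, and 4 without replicate 2 of 5d-U or replicate 4 of 2+3d-C. Without replicate 4 of 2+3d-C, Pdgfra and Pi16 were lower than in 5d-U. With the replicate number as a block, 1 member was called higher and 1 lower.

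Against 2d-U, the state at which compression began, 9 of 10 members were called higher in 2+3d-C, against 16% of all tested genes, and 0 lower, against 8.63%. Cd34 was the exception, with a log2 fold of -0.09 ± 0.94. For the 5 members with 0 reads in 2d-U only a lower bound can be given, and it was at least 538-fold for Lum, 74-fold for Mfap5 and 36.8-fold for Pdgfra, computed on mean CPM against the same 0.0802 CPM, the mean of 3 reads in each 2d-U library. The bound for Pdgfra rests on replicate 4, as does the call of Pi16, whose other libraries had 0 and 3 reads. The number called was 6 without replicate 4 of 2+3d-C and 7 without replicate 1 or replicate 3 of 2d-U. Of the members with reads in 2d-U, the log2 fold was 7.84 ± 1.2 for Ly6a, 5.71 ± 1.35 for Dcn, 5.24 ± 0.71 for Gsn and 2.66 ± 0.75 for Fbn1, and the median over all tested genes was 0.

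Against F, which asks how far compressed cells resembled freshly isolated ones, 0 of 10 members were called higher, against 1.94% of all tested genes, and 2 were called lower (Gsn and Pi16), against 4.47%. In 7 of 10 members all 2+3d-C libraries lay below all F libraries. The share of all tested genes that do so was not computed, and their median log2 fold was -0.76. Among the members the log2 fold was -7.15 ± 1.68 for Pi16, -4.91 ± 1.44 for Pdgfra, -4.38 ± 1.21 for Mfap5, -3.71 ± 1.22 for Dcn and -3.49 ± 1.16 for Lum. It was -2.6 ± 0.63 for Gsn, -2.59 ± 0.92 for Ly6a, -1.08 ± 0.71 for Fbn1 and -1.05 ± 0.95 for Cd34, and 1.18 ± 0.56 for Dpt, which had the one positive value. The number called lower depended on the libraries of F, being 7 without replicate 1 of F and 0 without replicate 4 or replicate 5 of F or without replicate 5 of 2+3d-C. With any of the other 8 libraries left out it was 2 to 7. It was 7 with DESeq2 or without a filter on low counts, 5 with the compared groups alone and 4 without TMM scaling.

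**Figure D3:**
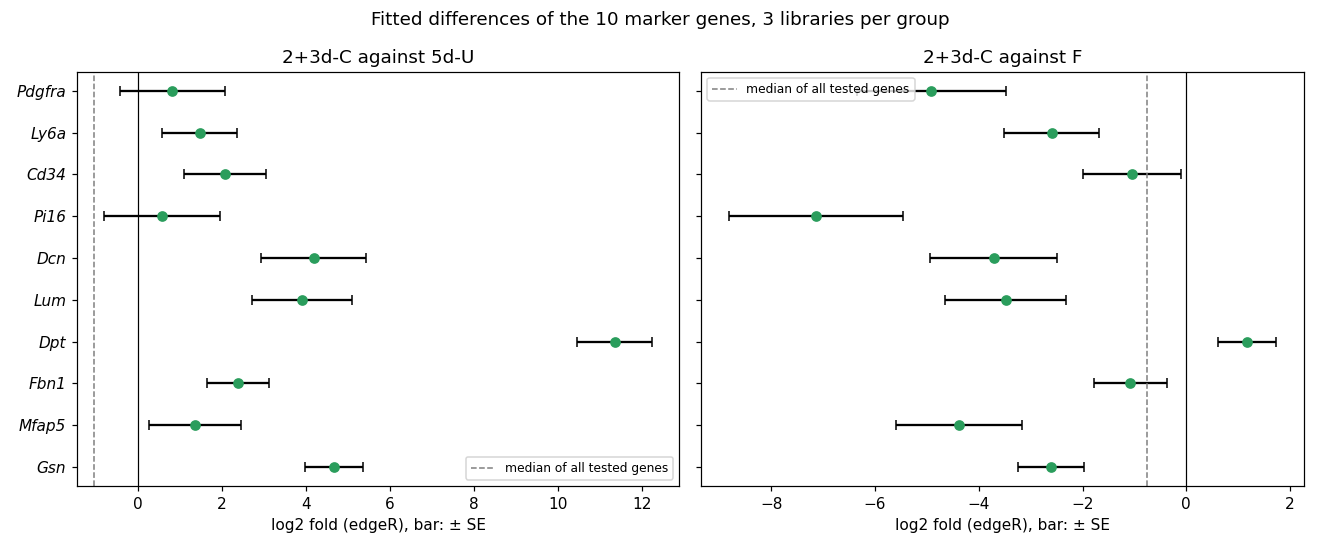
Fitted log2 fold (edgeR, bars ± SE, 3 libraries per group) of the 10 members in 2+3d-C against 5d-U (left) and against F (right), with a dashed line at the median of all 22635 tested genes (-1.05 and -0.76). Dpt stands apart in both panels, at 11.35 against 5d-U and at 1.18 against F, and Pi16 is the lowest against F at -7.15.

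Between F and 2d-U, before and after 2 days of culture, 9 of 10 members were called higher in F, against 33.3% of all tested genes, and 0 lower, against 10.6%. All 10 were higher in each F library than in each 2d-U library. The share of all tested genes that are was not computed, and their median log2 fold was 1.63. Among the members Cd34 had the smallest difference (log2 fold 0.95 ± 0.95), and the largest that could be fitted against detected reads were 10.44 ± 1.32 for Ly6a and 9.42 ± 1.58 for Dcn. Lum was at least 6009-fold and Dpt at least 1528-fold higher in F by the same bound as above. Gsn was higher by 7.85 ± 0.8 and Fbn1 by 3.74 ± 0.78 on the log2 scale.

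From 2d-U to 5d-U without compression, 3 of 10 members were called higher (Lum, Ly6a and Mfap5), against 1.87% of all tested genes, and 0 lower, against 0.243%. Of these, Ly6a had a log2 fold of 6.37 ± 1.13, with each 5d-U library above each 2d-U library. The calls of Lum and Mfap5 compare 3 to 184 reads with 0 in 2d-U. Cd34 was lower in each 5d-U library (log2 fold -2.16 ± 0.98) and was not called, and Gsn (0.57 ± 0.6) and Fbn1 (0.29 ± 0.71) differed by less than their SE. Only 1 of 10 was called higher without replicate 1 or 5 of F or without replicate 1 or 3 of 2d-U, or without TMM scaling, and 5 without replicate 2 of 5d-U and 6 with DESeq2 or without a filter on low counts.

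The reads on silent families bear on the low values of the members. Their density in each library, multiplied by the exon length of a member, gives the reads that such a background would place on it. In replicate 1 of 5d-U this came to 38.2 reads for Pdgfra and 24.3 for Pi16, against 88 and 28 counted, and to 6.57 for Dpt, against 2 counted. The same library had 927 reads on Dcn against 22.3 and 184 on Lum against 9.33, so these 2 genes exceeded the background there by far. In replicate 6 of 5d-U, Pi16 had 5 reads against 4.04, Mfap5 3 against 2.28 and Pdgfra 17 against 6.36. In all 2+3d-C libraries the background was at most 2.25 reads for any member. In replicates 4 and 5 of F, where the density was highest, Pdgfra had 3073 and 6185 reads against 50.4 and 71.5. The origin of the reads on silent families was not tested. With the expected reads subtracted, the number of members called higher in 5d-U against 2d-U was 1 in place of 3, and it stayed at 5 in 2+3d-C against 5d-U.

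**Figure D4:**
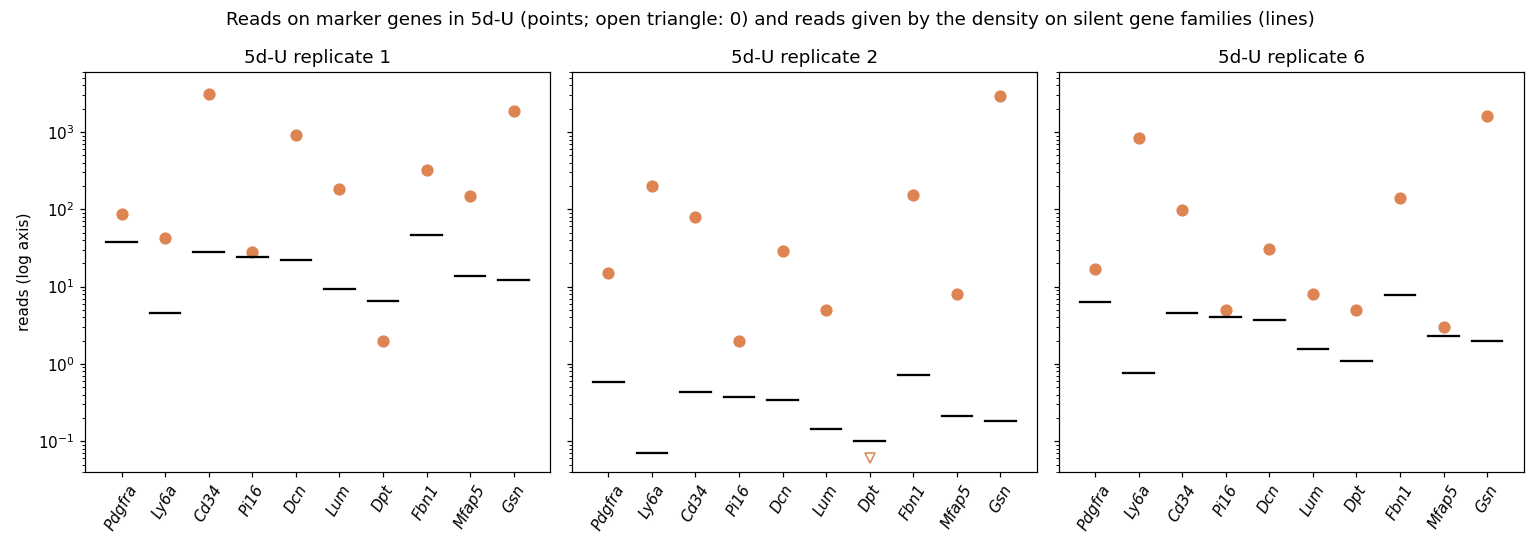
Reads counted on each member (points, log axis, open triangle for 0 reads) in the 3 libraries of 5d-U, with a line at the reads that the density on silent gene families gives for its exon length. In replicate 1, Pi16 (28 reads) sits at its line (24.3) and Dpt (2 reads) below its own (6.57), while Dcn (927 reads) lies far above 22.3.

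Other genes of the same matrix and lineage were taken from lists drawn up for comparison with earlier results of these libraries known. Of these 82 fibroblast genes, 27 rose and 6 fell in 2+3d-C against 5d-U (32.9% and 7.32%, beside the 9.14% and 13.4% of all genes above). The median log2 fold of the 82 genes was 1.65. The same shares of all genes stand beside each list counted against 5d-U below. Against F, 25 fell (30.5%, beside 4.47% of all genes), with a median log2 fold of -2.42. By edgeR 0 rose against F (1 at an unadjusted p under 0.05), beside 1.94% of all genes, and by DESeq2 0 rose. Against 2d-U, 44 rose and 2 fell (53.7% and 2.44%, beside 16% and 8.63% of all genes). In F against 2d-U, 64 were called higher and 2 lower (78% and 2.44%, beside the 33.3% and 10.6% of all genes above). In 5d-U against 2d-U, 7 rose and 1 fell (8.54% and 1.22%, beside 1.87% and 0.243% of all genes). Without replicate 1 of F the number that fell against F was 43, and it was 8 and 9 without replicates 4 and 5 of F.

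Of 12 further leucine-rich proteoglycan genes, the relatives of Dcn and Lum, 4 rose and 1 fell in 2+3d-C against 5d-U, with a median log2 fold of 1.26. Prelp, a proteoglycan that anchors basement membranes to collagen, had 0 reads throughout 2d-U. Its 5d-U libraries were at 0.0722, 0 and 0.0541 RPKM, and replicates 4, 5 and 10 of 2+3d-C at 137, 52.2 and 154 RPKM (adjusted p = 1.65e-05, edgeR). In F it had 98.5, 224 and 213 RPKM, so that replicates 4 and 10 of 2+3d-C lay within the range of F. Ogn (osteoglycin, log2 fold 3.83, adjusted p = 7.69e-05), Fmod (fibromodulin, 7.5, adjusted p = 0.00115) and Aspn (asporin, 3.15, adjusted p = 0.00103) rose too. Against F, Fmod (-5.01, adjusted p = 0.0227) and Aspn (-4.36, adjusted p = 0.000799) fell. Bgn, which encodes biglycan, the closest relative of decorin, did not pass the test (1.54, adjusted p = 0.0945).

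Of 18 genes of microfibrils and elastic fibers, the relatives and partners of Fbn1 and Mfap5, 6 rose and 1 fell against 5d-U, with a median log2 fold of 2.49. Ltbp4, a latent TGF-β binding protein that associates with fibrillin, rose by a log2 fold of 7.45 (adjusted p = 5.06e-05), with 310, 50.8 and 262 RPKM in 2+3d-C against 0.551 to 2.36 in 5d-U and 94.1 to 210 in F. The cross-linking enzyme genes Lox (5.02, adjusted p = 0.00137) and Loxl1 (3.76, adjusted p = 0.000759) and the binding protein gene Ltbp1 (2.54, adjusted p = 0.00251) also rose. Ltbp2, another gene of the binding protein family, fell (adjusted p = 0.00065), from 3.87, 0.222 and 0.735 RPKM in 5d-U to 0, 0 and 0.00558 RPKM in 2+3d-C. As with Fbn1, replicate 5 had the lowest level of 2+3d-C for Ltbp4, Lox and Ltbp1.

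Of 20 further genes of FAP surface or lineage, 3 rose and 2 fell against 5d-U (15% and 10%, beside 9.14% and 13.4% of all genes). These counts lie near the shares of all genes, and nothing is read from them. The median log2 fold was 0.73. Ackr3, a scavenging receptor for CXCL12, had 289, 439 and 250 RPKM in 2+3d-C against 20.7 to 33.9 in 5d-U and 93.2 to 296 in F (log2 fold 3.59, adjusted p = 0.000196). Scara5, a ferritin receptor of fibroblasts, rose by 5.17 (adjusted p = 0.0101), and the collagen receptor gene Ddr2 by 1.75 (adjusted p = 0.0201). Pdgfrl, a gene related to the PDGF receptors, did not pass (2.49, adjusted p = 0.116). The 2 that fell, Dpp4 (adjusted p = 0.0287) and Twist2 (adjusted p = 0.0422), had 0 reads in all 2+3d-C libraries. Their levels in 5d-U were low as well, with means of 0.11 and 0.17 RPKM, and Dpp4 was at 0 RPKM in replicate 2. With the reads expected from silent families subtracted, 3 of the other fibroblast genes fell against 5d-U in place of 6. Whether Dpp4 and Twist2 exceeded that background in 5d-U was not tested.

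Of 27 secreted products of fibroblasts, 13 rose and 2 fell, with a median log2 fold of 2.49. The chemokine gene Ccl11 had 90.6, 332 and 58.4 RPKM in replicates 4, 5 and 10 of 2+3d-C against 0.0804 to 0.271 in 5d-U and 227 to 419 in F (log2 fold 9.59, adjusted p = 2.69e-05). Has1, a hyaluronan synthase gene (7.66, adjusted p = 0.00112), Col6a1 (6.96, adjusted p = 0.001) and Col1a2 (3.5, adjusted p = 0.00589) rose. Col1a2, a chain of type I collagen, remained far under F (-4.68, adjusted p = 0.00803). Serpinf1, the gene of pigment epithelium-derived factor, fell (-3.4, adjusted p = 0.00553), and Sparc did not pass (-1.33, adjusted p = 0.0695).

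Of the 5 genes of the PDGF pathway beside Pdgfra, 1 rose and 0 fell against 5d-U (1 was lower at an unadjusted p under 0.05 by edgeR and by DESeq2). The one that rose was Pdgfrb, the receptor of pericytes and fibroblasts, with 3.31, 0.573 and 4 RPKM in replicates 4, 5 and 10 of 2+3d-C and 0 reads in 2d-U (log2 fold 3.54, adjusted p = 0.0118). Unlike Pdgfra it was present in replicate 10. The ligand gene Pdgfa was highest in 2d-U (91.1 to 101 RPKM) and fell from there to 2+3d-C (-2.21, adjusted p = 0.00384), but against 5d-U it did not pass (-1.28, adjusted p = 0.0567). Pdgfd did not pass either (1.03, adjusted p = 0.227).

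Of 17 relatives of the other members by protein family, 4 rose and 2 fell against 5d-U. Crispld2, which like Pi16 encodes a protein with a CAP domain, rose by 8.54 (adjusted p = 0.000129), with 36.3, 18.4 and 22.5 RPKM in 2+3d-C. Ly6c1, a neighbour of Ly6a in the Ly6 family that marks endothelial and some myeloid cells, rose by 4.02 (adjusted p = 0.00515), whereas Ly6e did not pass (-0.26, adjusted p = 0.703). Capg, an actin-capping relative of Gsn, did not pass (-0.09, adjusted p = 0.894). Glipr2 fell (-2.17, adjusted p = 0.00614).

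Endothelial, glial and adipocyte markers were in sum higher in F and 2+3d-C than in the uncompressed groups, as the members were. The lists for other cell types had other orders. The summed CPM of 10 endothelial genes was 1729 to 2523 in F and 392 to 504 in 2+3d-C, against 15.1 to 21.5 in 2d-U and 9.2 to 62.7 in 5d-U. Of these genes 8 rose against 5d-U, among them Pecam1 (log2 fold 4.41, adjusted p = 0.00188), Plvap (4.08, adjusted p = 0.00256) and Cldn5 (7.35, adjusted p = 0.00257). Of 9 genes of smooth muscle and pericytes 5 rose, with Notch3 (6.04, adjusted p = 0.000422) and Myh11 (5.72, adjusted p = 0.00119) among them. The sum of this list overlapped between 2+3d-C (450 to 797 CPM) and 5d-U (65.9 to 745 CPM). The paper stained Notch3 protein in its 5d-U and 2+3d-C MuSCs, so Notch3 is not particular to pericytes here. Of 6 glial genes 3 rose, among them Mbp (5.91, adjusted p = 0.000147), and the sum of the list was 183 to 612 CPM in 2+3d-C, 5.86 to 14.1 in 5d-U and 444 to 757 in F. Among the endothelial, smooth muscle and glial genes 0 fell by edgeR or DESeq2, and 0 were lower at an unadjusted p under 0.05.

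Tendon and immune genes were mixed. Of 5 tenocyte genes 3 rose, among them Chad (6.8, adjusted p = 0.00266) and Thbs4 (5.87, adjusted p = 0.00299), and 1 fell, the tendon transcription factor gene Scx (-6.03, adjusted p = 0.00236). The tenocyte sum was 123 to 185 CPM in 2+3d-C, 168 to 304 in 2d-U and 176 to 997 in 5d-U. Of 7 adipocyte genes 4 could be tested and 3 rose, Fabp4 (6.07, adjusted p = 0.000308), Cebpa (3.9, adjusted p = 0.00117) and Lpl (1.64, adjusted p = 0.00803). The sum of the adipocyte list was 613 to 1512 CPM in F and 193 to 368 CPM in 2+3d-C. It was 40 to 54.1 CPM in 2d-U and 42.8 to 49.9 CPM in 5d-U. In each 2+3d-C library 4 of the 7 adipocyte genes were above 3 reads, and in replicates 5 and 10 the other 3 had 0 reads. The sum in 2+3d-C thus rests on part of the list. Of 11 immune genes 1 rose (Cd74, 6.11, adjusted p = 0.000654) and 2 fell (Laptm5 and Ptprc). That is 9.09% and 18.2%, near the 9.14% and 13.4% of all genes. Ptprc, which encodes the pan-leukocyte protein CD45, had 0 reads in all 2+3d-C libraries. The immune sum was 938 to 3994 CPM in F, with the highest value in replicate 1, in which the members were lowest, and 38.8 to 207 CPM in 2+3d-C. Of 7 genes of mature myofibers 1 rose (Pvalb, 4.17, adjusted p = 0.0309) and 3 fell, and their sum was 30.7 CPM in replicate 1 of F against 2638 and 1613 in replicates 4 and 5, and reached 3514 CPM in replicate 6 of 5d-U.

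Genes of MuSCs were highest in sum in 2+3d-C. Of 13 such genes, 10 rose and 0 fell against 5d-U (0 were lower at an unadjusted p under 0.05 by edgeR or DESeq2). Against F 3 rose (23.1%, beside 1.94% of all genes). Sdc4 (log2 fold 5.01, adjusted p = 2.33e-05), Vcam1 (4.53, adjusted p = 3e-05) and Chodl (10.04, adjusted p = 9.41e-05) rose against 5d-U, and Myod1 rose against 5d-U (1.76, adjusted p = 0.0101) and F (2.7, adjusted p = 0.00559). Myod1 is among the 3 genes of the list with the highest mean CPM. The paper takes MyoD as a sign of activation. By staining of protein, not RNA, it reports smaller fractions of MyoD-positive cells in 2+3d-C than in 5d-U or 2d-U. The summed CPM of this list was 18499 to 20499 in 2+3d-C, 3427 to 8725 in F and 2572 to 3861 in 5d-U. The summed CPM of the 10 FAP members was 4972 to 29630 in F and 2500 to 4256 in 2+3d-C, with 263 to 305 in 2d-U and 120 to 293 in 5d-U. Gsn, which many cell types make, alone held 1740, 1437 and 3523 CPM in replicates 4, 5 and 10 of 2+3d-C. In 2d-U, Cd34, which quiescent MuSCs also carry, held 201 to 231 CPM of the sum. The members and the MuSC genes were thus both higher in sum in each 2+3d-C library than in any uncompressed one, and the part of other cell types in the levels of the members was not tested.

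**Figure D5:**
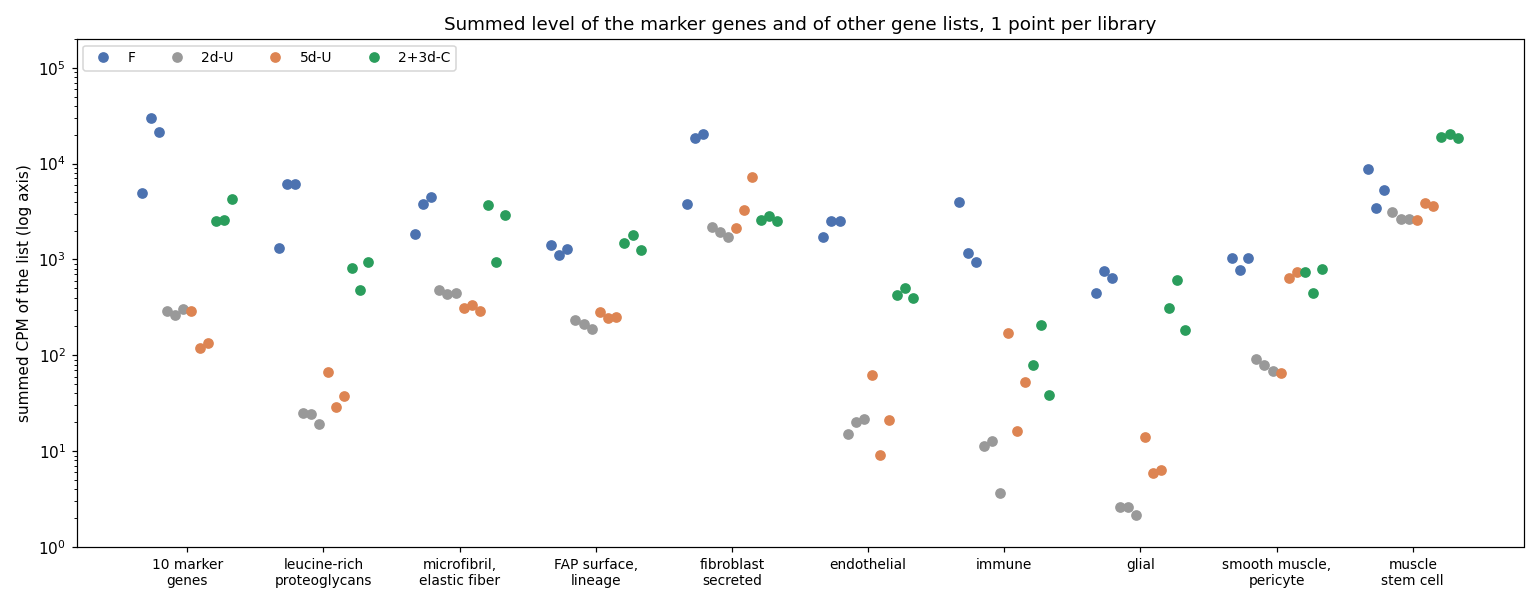
Summed CPM (log axis, TMM-scaled) of the 10 members, of other fibroblast lists and of lists for other cell types, with 1 point per library colored by group. The members reach 2500 to 4256 CPM in 2+3d-C (Gsn alone 1437 to 3523 CPM) and at most 305 CPM in 2d-U and 5d-U. The endothelial and glial lists also have F and 2+3d-C above both uncompressed groups.

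By likeness of profile, the genes closest to the mean of the 10 members over the 12 libraries were Tgfbi, Thbs4, Ccdc3, Ndufa4l2, Comp, Robo4, Olr1, Slfn5, Lnx1 and Pfkfb3, with Pearson's r between 0.979 and 0.989. Thbs4 and Comp encode thrombospondins of tendon and cartilage matrix, Tgfbi encodes a matrix protein induced by TGF-β, and Robo4 encodes a receptor of endothelial cells. Thbs4 had mean levels of 657 RPKM in F and 31.4 RPKM in 2+3d-C, against 0.0202 for 2d-U and 0.536 for 5d-U, and for Comp these were 116, 4.5, 0 and 0.105. In the same order Tgfbi had 38.4, 3.64, 0 and 0.0451, and Robo4 had 19.1, 2.68, 0 and 0.082. In all, 397 of 10756 genes that averaged 5 CPM or more had an r of at least 0.9. With a prior count of 0.5 in place of 2, 9 of the 10 were again among the closest, and with Spearman's rho 1 of 10 was.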

How the data were processed

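MuSCs of 4 groups with 3 libraries each were measured by RNA-seq of amplified full-length cDNA. With nf-core rnaseq 1.4.2 the authors mapped reads of one end to mm10, and they deposited raw counts per gene of GENCODE vM23 (featureCounts 1.6.4, exon reads without regard to strand), with no normalization. Their merged table repeats these counts and was not used.

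The 12 count files were joined by gene ID. In R 4.3.3, edgeR 4.0.16 was applied to the 22635 genes that pass filterByExpr, with TMM scaling and 1 quasi-likelihood fit of all 12 libraries by group. Tests were two-sided, p-values were adjusted by Benjamini-Hochberg over all tested genes, and calls were made at an adjusted p under 0.05. An exact permutation test of 3 libraries against 3 cannot go below 0.1 and was not made. RPKM used TMM-scaled library sizes and the exon lengths in the files, and log2 CPM a prior count of 2. Folds against groups with 0 reads were computed against 3 reads per library. The fit was checked on simulated data.

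The members and all gene lists were chosen with earlier results of these data known. All members were named. From each other list up to 6 genes could be named, 3 by mean CPM over all libraries and 3 by p in 2+3d-C against 5d-U, and Bgn and Pdgfrb always. Dpp4 and Twist2 were named in addition, as the genes of the FAP surface or lineage list that fell. Some genes that this rule names are not reported here. The 10 genes, among those averaging 5 CPM or more, whose profile correlated best with the mean standardized profile of the members were named too. Depth was 12540745 to 62424851 reads on genes. Alternatives were DESeq2 1.42.0, no TMM, no filter, the replicate number as a block, the compared groups alone, subtraction of reads expected from silent families, and each library left out.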

Additional observations from a re-analysis of the deposited data

How the results depend on the processing

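Dpt had its highest level in 2+3d-C and the other 9 members in F under all 15 alternatives tried for this result (CPM without TMM, silent-family reads subtracted, group medians, and each of the 12 libraries left out). In F against 2d-U, 8 to 10 members were called higher under all alternatives. Other counts moved by more than 1.5 times. With DESeq2, 7 members were lower in 2+3d-C against F and 6 higher in 5d-U against 2d-U, and of the other fibroblast genes 40 were lower against F, 5 were lower in 2+3d-C against 2d-U, 1 was lower in F against 2d-U, and 26 were higher and 2 lower in 5d-U against 2d-U. Without TMM, 2 members were higher in 2+3d-C against 5d-U, 4 lower against F and 1 higher in 5d-U against 2d-U, and of the other fibroblast genes 7 were lower in 2+3d-C against 2d-U, and 3 higher and 0 lower in 5d-U against 2d-U. Without TMM, the share of all calls that were higher changed from 64.9% to 44.7% in 2+3d-C against 2d-U, from 30.2% to 10.4% against F and from 88.5% to 73.7% in 5d-U against 2d-U. Without a filter, 7 members were lower against F, and 6 were higher and 1 lower in 5d-U against 2d-U, and of the other fibroblast genes 43 were higher in 2+3d-C against 5d-U, 5 lower against 2d-U and 44 lower against F, with 32 higher and 4 lower in 5d-U against 2d-U. With silent-family reads subtracted, 1 member was higher in 5d-U against 2d-U, and of the other fibroblast genes 3 were lower in 2+3d-C against 5d-U, 1 lower in F against 2d-U, and 4 higher and 0 lower in 5d-U against 2d-U. With the compared groups alone, where low members could drop out of the fit, 5 members were lower against F, and of the other fibroblast genes 2 were lower in 2+3d-C against 5d-U and 29 higher against 2d-U. The cause of these changes was not tested.

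The replicate number as a block left 2 residual degrees of freedom. The deviations of libraries with the same number correlated at -0.424 to 0.0322. With 3 libraries per group these values cannot show whether libraries of the same number shared an animal or a sort. The paper states that cells of each sort were divided at random among the conditions. With the replicate block, 1 member was higher and 1 lower in 2+3d-C against 5d-U, 5 were higher against 2d-U, 7 lower against F, and 5 higher and 1 lower in 5d-U against 2d-U. The log2 fold of Fbn1 turned to -0.43 against 5d-U and -0.26 against 2d-U, and the sign also changed for Mfap5, Pdgfra and Pi16 in 2+3d-C against 5d-U and for Cd34 in F against 2d-U, none of which had been called. Of the other fibroblast genes, 9 were higher and 11 lower against 5d-U, 21 higher and 6 lower against 2d-U, 42 lower against F, 1 lower in F against 2d-U, and 20 higher and 0 lower in 5d-U against 2d-U with the block.

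With each library left out in turn, the members called higher in 2+3d-C numbered 3 to 7 against 5d-U and 6 to 9 against 2d-U, those lower against F 0 to 7, those higher in F against 2d-U 9 in each case, and those in 5d-U against 2d-U 1 to 5 higher and 0 to 1 lower. Of the other fibroblast genes, 24 to 32 were higher and 5 to 8 lower in 2+3d-C against 5d-U, 38 to 45 higher and 2 to 4 lower against 2d-U, 0 to 1 higher and 8 to 43 lower against F, 55 to 66 higher and 1 to 3 lower in F against 2d-U, and 4 to 22 higher and 0 to 2 lower in 5d-U against 2d-U. Leaving out replicate 1, 4 or 5 of F gave 43, 8 and 9 lower against F, and replicate 5 of 2+3d-C gave 15. For 5d-U against 2d-U the highest count, 22, came without replicate 10 of 2+3d-C, and it was 17 without replicate 2 of 5d-U. Members with 1 to 3 reads in a library carry counting error of the order of their own level.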
